A study of Mus musculus with 18 samples.

Results

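The genes described here are Aqp1, Nt5e, Smoc1, Diras2, Mrgprf, Fbxo32 and Parm1, 7 of the 19057 mouse genes named in the probe annotation of the arrays and of the 10902 genes with enough detected signal to be tested. They were chosen from these same arrays because knockout and wild-type cells differed before treatment, so the difference at 0 h is given as a description without a test. All 15 probes annotated to them passed the detection filter. The study compared primary male embryonic fibroblasts of C57BL/6 mice, taken from littermate embryos at day 13.5, that were either wild type or knockout for Dusp5. Both genotypes were sampled untreated (0 h) and after 1 h and 3 h in 100 ng/ml TPA, a phorbol ester, on 3 arrays per group and 18 in all. No group received solvent alone, so a change with TPA also holds any effect of solvent, handling or time. The labels do not say whether the 3 arrays of a group came from separate cultures or embryos, so the p-values reflect the spread among these samples alone, and that spread may be technical.

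DUSP5 is a phosphatase that removes the activating phosphates from the kinase ERK in the nucleus, and its own gene is switched on by ERK signalling. TPA activates protein kinase C, which feeds into the Ras and ERK pathway. The 7 genes have unlike roles. Aqp1 encodes a water channel of the plasma membrane, Nt5e the ectonucleotidase CD73, which makes adenosine from extracellular AMP, and Mrgprf an orphan G protein-coupled receptor. Parm1 encodes a mucin-like membrane protein and Smoc1 a secreted calcium-binding protein of the extracellular matrix. Diras2 encodes a small GTPase of the Ras family, and Fbxo32 (atrogin-1) an intracellular F-box adaptor of a ubiquitin ligase, best known for its rise in wasting muscle.

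In RefSeq's annotation the 7 genes lie on 7 different chromosomes, and 0 of them share the chromosome of Dusp5. RefSeq's table of mouse promoters held 4 of the 7. The 250 bases before the start of each of these 4 are shown. In capitals is the GC box GGGCGG, read on either strand, in Aqp1 and Nt5e, and the AP-1 pattern TGANTCA, where N is any base, in Diras2. Positions are of the build GRCm38.p6, and each sequence is written 5′ to 3′ on its gene's strand.
Aqp1, chr6:55336049-55336298, plus strand: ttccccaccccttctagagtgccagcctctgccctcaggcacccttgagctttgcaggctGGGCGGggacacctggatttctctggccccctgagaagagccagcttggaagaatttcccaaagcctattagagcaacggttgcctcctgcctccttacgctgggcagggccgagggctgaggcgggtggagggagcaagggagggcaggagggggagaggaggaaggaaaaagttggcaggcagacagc
Nt5e, chr9:88327359-88327608, plus strand: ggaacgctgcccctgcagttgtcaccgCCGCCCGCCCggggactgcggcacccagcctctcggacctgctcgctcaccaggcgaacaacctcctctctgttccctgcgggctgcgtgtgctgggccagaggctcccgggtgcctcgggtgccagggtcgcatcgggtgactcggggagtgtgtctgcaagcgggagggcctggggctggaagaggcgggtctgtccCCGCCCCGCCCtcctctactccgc
Parm1, chr5:91517450-91517699, plus strand: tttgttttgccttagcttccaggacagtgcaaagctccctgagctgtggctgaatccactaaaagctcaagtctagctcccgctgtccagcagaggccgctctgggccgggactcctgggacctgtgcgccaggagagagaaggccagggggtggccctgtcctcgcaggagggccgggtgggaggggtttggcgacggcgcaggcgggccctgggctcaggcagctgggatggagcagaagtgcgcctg
Diras2, chr13:52530837-52531086, minus strand: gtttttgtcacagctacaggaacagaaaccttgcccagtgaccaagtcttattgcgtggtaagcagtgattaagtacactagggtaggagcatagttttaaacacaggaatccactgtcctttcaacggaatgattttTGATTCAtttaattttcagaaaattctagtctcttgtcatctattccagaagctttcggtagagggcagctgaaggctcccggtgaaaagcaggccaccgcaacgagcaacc

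The 4 sequences were each searched on both strands for 8 motifs: AP-1 TGANTCA, CRE TGACGTCA, ETS CCGGAAGT, the FoxO motif GTAAACA, the E-box CACGTG, the GC box GGGCGG, the TATA box TATAAA and the CArG box. Aqp1 held 1 GC box, 190 bases before the start, and Nt5e held 4 in overlapping pairs. The GC box occurred in 32.7% of all 32851 promoter windows of this length. Diras2 held 1 match to TGANTCA, with T at the open base N, 112 bases before the start. That pattern, with any base at N, was found in 6.75% of the windows, and Diras2 held no other motif of the 8. Parm1 held none of them. The 6 motifs found in none of the 4 occurred in 1.47% (CArG) to 12.4% (TATA) of the windows. The base composition ranged from 44.0% G and C in Diras2 to 72.0% in Nt5e, with 62.0% in Aqp1 and 65.2% in Parm1, against a median of 52.4% over all windows. A match describes only these letters and says nothing of whether a factor binds.

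On each array 16675 to 18348 probes were detected, and arrays of 1 group correlated at 0.991 to 0.996. Mean raw intensity ranged from 235.7 to 357.1. At 1 h it was 277.5 to 286.3 on wild-type arrays and 235.7 to 258.6 on knockout arrays, and the genotypes overlapped at 0 h and 3 h. At 0 h wild-type arrays had 17889 to 18348 detected probes and knockout arrays 17308 to 17489. All 10 fibroblast markers examined were detected, with 1, Pdgfra, called lower in knockout cells at 1 h. In knockout cells the Dusp5 signal was lowered without reaching background: it was lower than in wild type by 0.97 at 1 h and 0.65 at 3 h on a log2 scale (limma adjusted p = 1.93e-06 and 0.000145), and the probe stayed detectable on each of the 9 knockout arrays. The sources used here do not place that probe relative to the deletion. Summed marker signals of some other cell types did not overlap between the genotypes at some times, while few markers were called singly. The sums are of linear signal, so the brightest markers weigh most. Of all tested genes taken singly, 17.6% did not overlap at 1 h and 22% at 3 h. Des is in the smooth muscle list and also in the skeletal muscle list used below. Normalized signal was summed over 11 smooth muscle and pericyte markers. The sum ranged from 18920 to 20630 in untreated wild type and 20910 to 21200 in untreated knockout, without overlap also at 1 h. Of the 11, 0 were called higher and 1 lower in knockout cells at 0 h, and 0 either way at 1 h. At 3 h 3 of the 11 (Tagln, Myh11 and Mcam) were called higher in knockout cells and 0 lower, where 4.97% of all genes were called either way. Over 9 cartilage and bone markers the sums did not overlap at 0 h, or at 3 h, when they were 3398 to 3740 and 4678 to 4827 and 2 of 6 tested (Sox9 and Col2a1) were called higher. Of these 9 markers 6 passed the filter and 2, Bglap and Matn1, were undetected on all arrays. Sums of neural markers were higher in knockout at 0 h and 1 h (0 of 3 tested called) and those of epithelial markers at 3 h (1 of 5, Cldn4). The part of these cells in the differences below was not tested. In cultures measured in bulk, fewer cells of a type and less RNA per cell cannot be told apart, which applies to every gene below.

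Values below are log2 of background-corrected, quantile-normalized signal on the brightest probe of each gene, listed in the order of arrays 1, 2 and 3. They compare samples for 1 gene and do not rank genes against each other. A gene was called where limma's adjusted p, computed over all 10902 genes within a comparison, was below 0.05. Because the genes were chosen with earlier results on all these arrays known, their calls are measurements and not independent support. The stated choice was on the untreated arrays, and the values at 1 h and 3 h were known as well when it was made. Changes from 0 h use the untreated arrays, whereas changes from 1 h to 3 h do not.

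**Figure D1:**
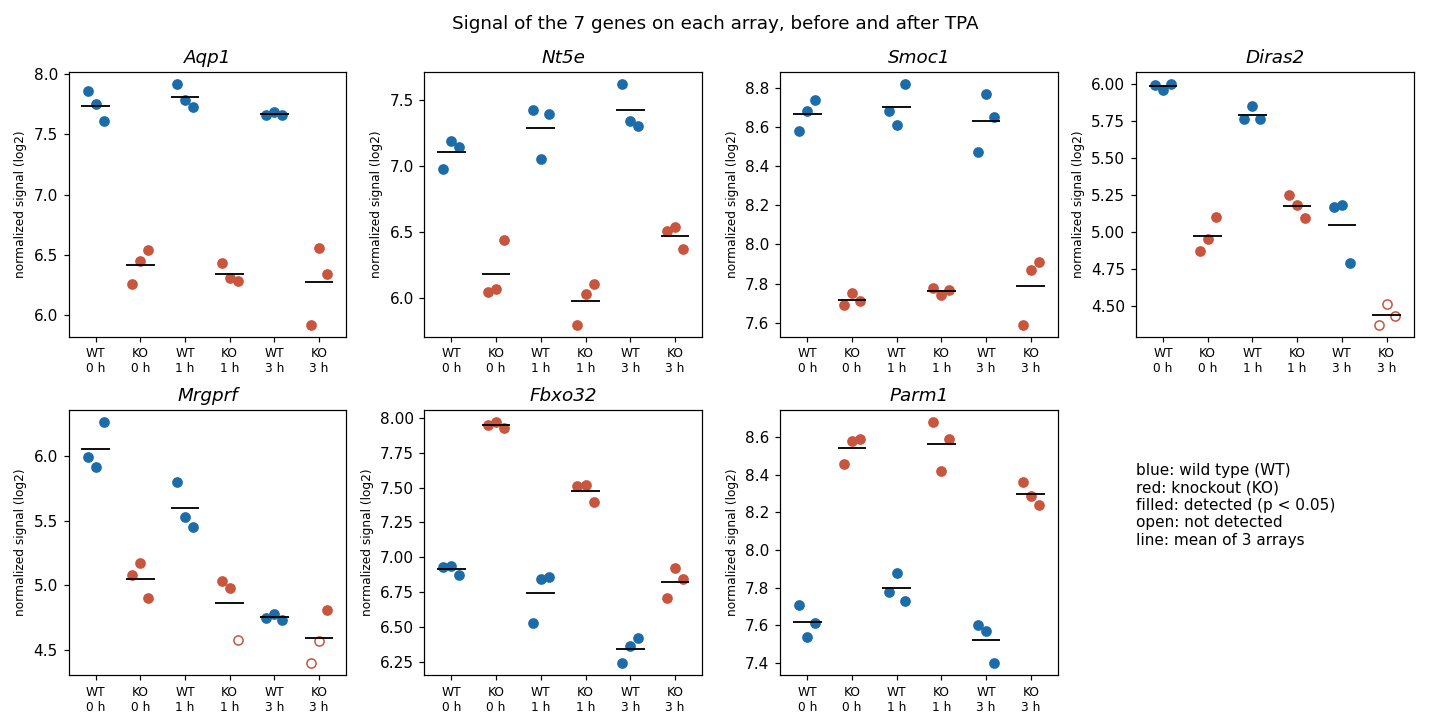
Normalized signal (log2, vertical axes, which do not start at 0 and differ between panels) of the 7 genes on each of 18 arrays, by genotype and hours of TPA on the horizontal axis; points are arrays, lines are means of 3 and open points were not detected. Aqp1, Nt5e, Smoc1 and Parm1 separate the 9 knockout from the 9 wild-type arrays, and in Mrgprf the genotypes overlap at 3 h.

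Before TPA the differences, knockout minus wild type, were −1.32 for Aqp1, −1.01 for Diras2, −1.0 for Mrgprf, −0.95 for Smoc1, −0.92 for Nt5e, 1.03 for Fbxo32 and 0.92 for Parm1. By size they held ranks among all tested genes from 1 for Aqp1 to 15 for Nt5e. No threshold was stated for the choice. At this time 1.85% of all tested genes were called in either direction, from which nothing is read about the 7 genes.

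At 1 h of TPA all 7 genes were called, 5 lower and 2 higher in knockout cells, where 2.2% of all tested genes were called. Their groups did not overlap for any of the 7, as for 17.6% of all genes. The median of the 7 differences was −0.73, and that of all tested genes −0.01. At 3 h, 6 of the 7 were called, 4 lower and 2 higher, against 4.97% of all genes, with 6 not overlapping against 22% of all genes. Mrgprf was the exception at 3 h. The median of the 7 was then −0.62, with −0.01 over all genes.

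With all times pooled, the genes split into those whose genotypes stayed apart on every array and those whose genotypes overlapped. In Aqp1, Nt5e and Smoc1 each of the 9 knockout arrays lay below each of the 9 wild-type arrays, a pattern seen in 58 of all tested genes (0.532%). In Parm1 each knockout array lay above each wild-type array, as in 46 genes (0.422%). The untreated arrays that chose the genes make up 3 of each 9, so nothing is read from these shares about the 4 genes. In Diras2, Mrgprf and Fbxo32 the 9 arrays of the genotypes overlapped once all times were pooled. At each time taken alone the genotypes did not overlap in Diras2 and Fbxo32, whereas in Mrgprf they overlapped at 3 h. A steady difference was thus not seen for Mrgprf.

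**Figure D2:**
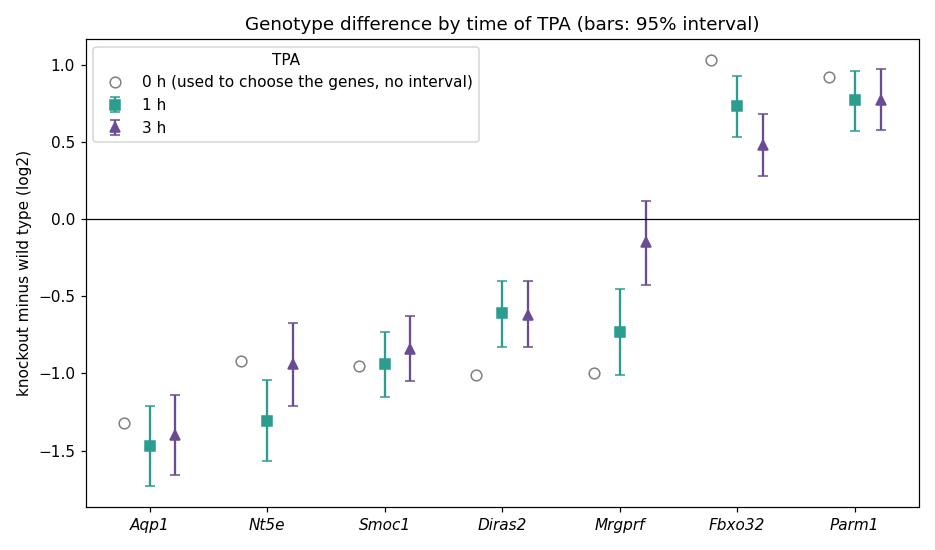
Difference between knockout and wild type (log2, vertical axis) for each of the 7 genes at 0 h, 1 h and 3 h of TPA, with 95% intervals from limma at 1 h and 3 h and none at 0 h, which chose the genes. The interval of Mrgprf at 3 h, −0.43 to 0.12, is the only one shown that reaches 0.

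Aqp1, the water channel, was the gene furthest below wild type among all tested genes at each time. On wild-type arrays it read 7.86, 7.75 and 7.61 before TPA, 7.92, 7.79 and 7.73 at 1 h, and 7.66, 7.69 and 7.66 at 3 h. On knockout arrays it read 6.26, 6.45 and 6.54, then 6.43, 6.31 and 6.28, then 5.92, 6.56 and 6.34. The lowest wild-type array, 7.61, thus stood above the highest knockout array, 6.56. Knockout cells were lower by 1.47 ± 0.13 at 1 h (standard error, n = 3 a group, limma adjusted p = 6.71e-07), or 36.1% of the wild-type signal. At 3 h the difference was −1.40 ± 0.13 (limma adjusted p = 4.15e-07), or 37.9% of wild type. TPA left no called change in either genotype: at 3 h the change was −0.07 in wild type (95% interval −0.33 to 0.19) and −0.15 in knockout (−0.41 to 0.12). With scaling to the median of all probes, which put the median of all genes at −0.311 in this comparison, the Aqp1 change in wild type was −0.50 and was called (limma adjusted p = 0.0113). In order of level the wild-type groups at 1 h, 0 h and 3 h came first, followed by the knockout groups at 0 h, 1 h and 3 h, and neighbours in that order overlapped except where the genotypes met.

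Endothelial and red cells also carry this water channel, so their markers are given beside it. Of 11 endothelial markers 6 passed the filter and 3 (Tie1, Vwf and Cldn5) were undetected on all arrays, with Pecam1 and Cdh5 detected on 1 array each. Before TPA the normalized signal summed over the 11 ranged from 1033 to 1095 on wild-type arrays and from 944.5 to 1025 on knockout arrays. The ranges were 1053 to 1153 and 1000 to 1206 at 1 h, and 1134 to 1315 and 1061 to 1238 at 3 h. It was lower in knockout at 0 h and overlapped at 1 h and 3 h, and 0 of the 6 were called at any of these times. Of 7 red cell markers on the array 3 passed and 3 were undetected throughout, with summed signals of 140 to 163.2 over all arrays. The part of other cell types in the Aqp1 difference was not tested. Among other aquaporins Aqp4, Aqp5 and Aqp11 were tested and 0 of 3 were called at 1 h or 3 h, with differences of −0.02 to 0.10 at 1 h and −0.02 to 0.12 at 3 h.

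Nt5e, the CD73 gene, was lower in knockout cells throughout and was the only gene of the 7 called higher between 1 h and 3 h. Its wild-type arrays read 6.98, 7.19 and 7.14 before TPA, 7.42, 7.05 and 7.39 at 1 h, and 7.62, 7.34 and 7.30 at 3 h. Its knockout arrays read 6.05, 6.07 and 6.44, then 5.80, 6.03 and 6.11, then 6.51, 6.54 and 6.37. The 9 wild-type arrays all stayed above the 9 knockout arrays. The difference was −1.31 ± 0.13 at 1 h (limma adjusted p = 2.6e-06) and −0.94 ± 0.13 at 3 h (adjusted p = 0.000103). From 1 h to 3 h knockout cells rose by 0.49 ± 0.13 (limma adjusted p = 0.0113) without overlap, and the wild-type change was 0.13 (adjusted p = 0.619). This rise did not hold as the mean of both Nt5e probes (0.14, limma adjusted p = 0.521) or without knockout 1 h array 1 (0.41, adjusted p = 0.0723). The test of the difference between those changes gave 0.36 (95% interval −0.02 to 0.74, limma adjusted p = 0.787).

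Other genes that make, break down, carry or sense extracellular nucleotides and adenosine were measured beside Nt5e. Of 7 tested, including the adenosine-clearing enzymes Ada and Adk and the transporters Slc29a1 and Slc29a2, 0 were called between the genotypes at 1 h or 3 h. Their median differences were 0.01 and −0.11. Slc29a1 read −0.35 at 1 h (limma adjusted p = 0.122). With TPA at 3 h 1 of the 7 was called higher in each genotype and 0 lower, against 16% of all genes called in wild type and 18.4% in knockout.

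Smoc1, the matricellular protein gene, showed no called change with TPA at any time. Wild-type arrays read 8.58, 8.68 and 8.74 before TPA, 8.68, 8.61 and 8.82 at 1 h, and 8.47, 8.77 and 8.65 at 3 h. Knockout arrays read 7.69, 7.75 and 7.71, then 7.78, 7.74 and 7.77, then 7.59, 7.87 and 7.91. All knockout arrays were below all wild-type arrays, and within each genotype the 3 times overlapped. Knockout cells were lower by 0.94 ± 0.10 at 1 h (limma adjusted p = 8.86e-06) and by 0.84 ± 0.10 at 3 h (adjusted p = 2.48e-05), or 52% and 55.8% of wild type. The changes at 3 h of TPA, −0.04 in wild type and 0.08 in knockout, had intervals of −0.25 to 0.17 and −0.14 to 0.29. With scaling to the median of all probes the Smoc1 change in wild type was −0.48 and was called (limma adjusted p = 0.016), where the median of all genes was −0.311. The other tested genes of the SPARC family, Sparc, Smoc2, Spock3 and Fstl1, were called in 0 of 4 cases at 1 h and at 3 h. Spock3 came nearest, with −0.44 at 1 h (limma adjusted p = 0.13) and −0.37 at 3 h (adjusted p = 0.165).

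Parm1, the mucin-like gene, was higher in knockout cells throughout. Wild-type arrays read 7.71, 7.54 and 7.61 before TPA, 7.78, 7.88 and 7.73 at 1 h, and 7.60, 7.57 and 7.40 at 3 h. Knockout arrays read 8.46, 8.58 and 8.59, then 8.68, 8.42 and 8.59, then 8.36, 8.29 and 8.24. The lowest knockout array, 8.24, stood above the highest wild-type array, 7.88. The difference was 0.77 ± 0.09 at both 1 h and 3 h (limma adjusted p = 6.02e-05 and 2.72e-05), 170% and 171% of the wild-type signal. Between 1 h and 3 h the change was −0.27 in each genotype, without overlap, and missed the threshold (limma adjusted p = 0.0717 in wild type and 0.066 in knockout). It was called in both without background correction, in the series matrix values and with the stricter detection filter. From 0 h to 3 h the Parm1 change was −0.10 in wild type and −0.25 in knockout without a call. With scaling to the median of all probes these were −0.54 and −0.41 and were called (limma adjusted p = 0.00342 and 0.0456), where the medians of all genes were −0.311 and −0.119. The knockout change of Parm1 was also called without background correction and in the series matrix values.

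Of 8 other mucin-like membrane protein genes 0 were called between the genotypes at 1 h and 1 at 3 h, against 2.2% and 4.97% of all genes. The 1 called was Podxl, the podocalyxin gene, higher in knockout cells by 0.62 ± 0.17 (limma adjusted p = 0.0366) and detected on 14 of 18 arrays. The median of the 8 was 0.05 at 1 h and 0.04 at 3 h. Pdpn, the podoplanin gene, read 0.09 and 0.25 without a call.

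Diras2, the Ras-like GTPase gene, was lower in knockout cells and fell with TPA in both genotypes. Wild-type arrays read 5.99, 5.96 and 6.00 before TPA, 5.76, 5.85 and 5.76 at 1 h, and 5.17, 5.18 and 4.79 at 3 h. Knockout arrays read 4.87, 4.95 and 5.10, then 5.25, 5.18 and 5.09, then 4.37, 4.51 and 4.43. Wild-type cells at 3 h had come down to the range of untreated knockout cells, while at any 1 time the genotypes did not overlap. The difference was −0.61 ± 0.10 at 1 h (limma adjusted p = 0.00189). At 3 h Diras2 was not detected on any of the 3 knockout arrays, so wild type stood at least 1.31-fold higher (fitted difference −0.62, limma adjusted p = 0.000907). This bound, and those below, set the bright group's mean against the lowest signal of detected probes or the dim probe's own, whichever was higher.

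By 3 h of TPA Diras2 had fallen by 0.93 ± 0.10 in wild type (limma adjusted p = 1e-06), and in knockout cells untreated signal was at least 1.24-fold that at 3 h (adjusted p = 0.000613). At 1 h neither change was called, −0.20 in wild type and 0.20 in knockout. From 1 h to 3 h, without the untreated arrays, wild type fell by 0.74 (limma adjusted p = 4.3e-05), and the knockout signal at 1 h was at least 1.43-fold that at 3 h (adjusted p = 2.68e-05). On the further Diras2 probe the knockout change from 1 h to 3 h was −0.16, with overlapping groups (limma adjusted p = 0.598), and wild type fell by 0.79 (adjusted p = 0.00102). Among 8 other Ras-like genes 2 were called between the genotypes at 1 h, against 2.2% of all genes. Rrad, of the same superfamily, was higher in knockout cells by 0.66 ± 0.13 at 1 h and 0.68 at 3 h (limma adjusted p = 0.0096 and 0.00321). Rasl12 was lower by 0.40 at 1 h (adjusted p = 0.0332). Diras1, a close relative, was detected on 6 of 18 arrays and read 0.07 and −0.12 without a call.

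Mrgprf, the orphan receptor gene, had a genotype difference that was called at 1 h and not at 3 h, when both genotypes were near the detection limit. Wild-type arrays read 5.99, 5.91 and 6.26 before TPA, 5.80, 5.53 and 5.45 at 1 h, and 4.75, 4.78 and 4.73 at 3 h. Knockout arrays read 5.08, 5.17 and 4.90, then 5.03, 4.98 and 4.58, then 4.40, 4.57 and 4.81. All untreated wild-type arrays were above all knockout arrays, and at 3 h the 3 wild-type arrays lay inside the knockout range. The difference was −0.73 ± 0.13 at 1 h (limma adjusted p = 0.00415) and −0.15 ± 0.13 at 3 h (95% interval −0.43 to 0.12, adjusted p = 0.635). The probe was detected on 2 of 3 knockout arrays at 1 h and 1 of 3 at 3 h. At 3 h the wild-type arrays were themselves close to the limit, with detection p of 0.031 to 0.0427. A difference below the detection limit would not show, and the wild-type fall may be cut short as well.

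Wild-type Mrgprf fell by 1.30 ± 0.13 at 3 h of TPA (limma adjusted p = 3.91e-07), and by 0.84 ± 0.13 between 1 h and 3 h (adjusted p = 0.000185). At 1 h of TPA the wild-type change was −0.46 and missed the threshold (limma adjusted p = 0.0691). It was called with scaling to the median of all probes, and without wild-type 1 h array 1 or knockout 1 h array 3. Knockout Mrgprf fell by 0.45 at 3 h (limma adjusted p = 0.0217), a call that did not hold without knockout 0 h arrays 1 or 2 or knockout 3 h arrays 1 or 2 (−0.44 to −0.36, adjusted p from 0.0576 to 0.107). That call was also lost without background correction (adjusted p = 0.109), in the series matrix values (0.112) and with scaling to the tested genes (0.125). The difference of the 3 h responses was 0.85 (95% interval 0.45 to 1.25), with limma adjusted p = 0.0591. It was called with scaling to the median of all probes (1.13, adjusted p = 0.00385), with the stricter filter (adjusted p = 0.0462), and without knockout 1 h array 3 (adjusted p = 0.0337) or knockout 3 h array 1 (adjusted p = 0.037). As only 1 of the 3 knockout arrays at 3 h was above detection, the knockout fall may be cut short by the detection limit, and the response difference with it. This response difference uses the untreated arrays that chose the gene, which pushes it opposite to the 0 h difference. Without those arrays the difference of the changes from 1 h to 3 h was 0.57 (95% interval 0.18 to 0.97, adjusted p = 0.43). The 2 other Mas-related receptors tested, Mrgpre and Mrgprg, were not called at 1 h or 3 h.

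Fbxo32, the atrogin-1 gene, was higher in knockout cells and fell with TPA in both genotypes. Wild-type arrays read 6.93, 6.94 and 6.87 before TPA, 6.53, 6.84 and 6.86 at 1 h, and 6.24, 6.36 and 6.42 at 3 h. Knockout arrays read 7.95, 7.97 and 7.93, then 7.51, 7.52 and 7.40, then 6.71, 6.92 and 6.84. Knockout cells at 3 h had come down to the range of untreated wild-type cells, yet at each time the knockout arrays stayed above the wild-type arrays. The difference was 0.73 ± 0.10 at 1 h (limma adjusted p = 0.000146) and 0.48 ± 0.10 at 3 h (adjusted p = 0.00405). Neither call held when arrays were scaled to the median of all probes, which gave 0.44 (adjusted p = 0.0619) and 0.43 (adjusted p = 0.205).

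At 3 h of TPA Fbxo32 had fallen by 1.13 ± 0.10 in knockout cells (limma adjusted p = 1.69e-08) and by 0.58 ± 0.10 in wild type (adjusted p = 0.000189). Knockout cells had already fallen by 0.47 at 1 h (limma adjusted p = 0.00323), while the wild-type value was −0.17 (adjusted p = 0.489), also without overlap. The test of the difference between the responses at 1 h gave −0.30 (95% interval −0.59 to −0.02, limma adjusted p = 0.819). The wild-type change at 1 h was called as the mean of all 3 Fbxo32 probes (−0.27, limma adjusted p = 0.0453) and with scaling to the median of all probes (−0.48, adjusted p = 0.038). The further probes ILMN_2715893 and ILMN_2752994 gave −0.30 and −0.35 in wild type (limma adjusted p = 0.386 and 0.0977) and −0.42 and −0.50 in knockout (adjusted p = 0.0931 and 0.00602). Between 1 h and 3 h the falls were 0.65 in knockout (limma adjusted p = 5.07e-05) and 0.41 in wild type (adjusted p = 0.00752, and 0.0509 without wild-type 1 h array 3). The difference of the 3 h responses, −0.55 (95% interval −0.83 to −0.27), was not called (limma adjusted p = 0.108), but was called without background correction (−0.43, adjusted p = 0.00428) and in the series matrix values (−0.43, adjusted p = 0.00399). It too uses the untreated arrays of the choice. From 1 h to 3 h the difference of the changes was −0.25 (−0.53 to 0.04, adjusted p = 0.833).

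Fbxo32 is a target of FoxO transcription factors in muscle, so other FoxO and atrophy genes are given beside it. Of 15 tested, 0 were called between the genotypes at 1 h and 1 at 3 h, against 2.2% and 4.97% of all genes. The 1 called was Pik3ip1, an inhibitor of PI3 kinase, lower in knockout cells by 0.58 ± 0.14 (limma adjusted p = 0.0172), the direction opposite to Fbxo32. With 3 h of TPA 3 of the 15 fell and 1 rose in wild type, and 6 fell and 1 rose in knockout cells, against 8.19% and 10.1% of all genes called lower. Of 6 other F-box adaptors 1 was called between the genotypes at 3 h, against 4.97% of all genes. This was Fbxo31, lower in knockout by 0.58 ± 0.11 (limma adjusted p = 0.00281). Of 10 skeletal muscle markers on the array 5 passed the filter and 4, among them Myod1 and Ckm, were undetected on all arrays. Summed over the list, normalized signal before TPA ranged from 2641 to 3019 on wild-type arrays and from 3184 to 3602 on knockout arrays. It was 2698 to 2914 and 3163 to 3315 at 1 h, and 2808 to 2871 and 2837 to 3375 at 3 h, so the genotypes did not overlap at 0 h and 1 h. Of the 5 muscle markers tested, 1 was called higher and 1 lower in knockout at 0 h, and 0 at 1 h or 3 h. The part of these cells in the Fbxo32 difference was not tested.

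**Figure D3:**
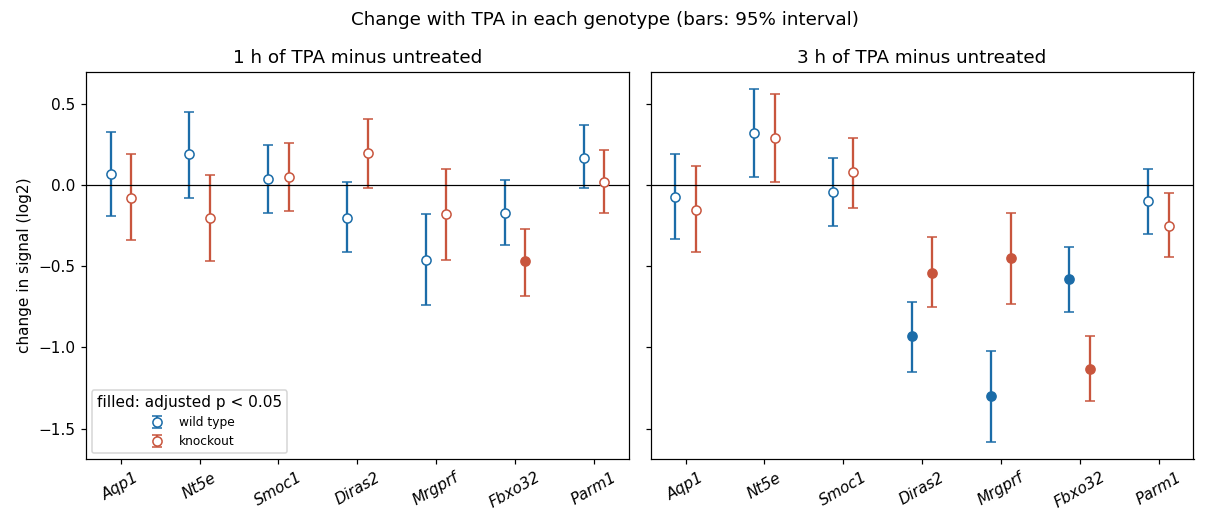
Change in signal (log2, vertical axis) from untreated cells at 1 h and 3 h of TPA for the 7 genes in wild type (blue) and knockout (red), with 95% intervals; filled points passed an adjusted p of 0.05. Diras2, Mrgprf and Fbxo32 are filled in both genotypes at 3 h, and Fbxo32 in knockout at 1 h is the only filled point at that time.

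Counted together, the 7 genes gave 0 called changes at 1 h of TPA in wild type (1, Mrgprf, at an unadjusted p below 0.05), against 3.38% of all genes. In knockout cells 1 gene fell at 1 h, where 2.85% of all genes were called lower. At 3 h the 3 genes Diras2, Mrgprf and Fbxo32 fell in wild type (8.19% of all genes called lower) and the same 3 fell in knockout (10.1%). With scaling to the median of all probes Aqp1, Smoc1 and Parm1 were also called lower in wild type at 3 h. From 1 h to 3 h, without the untreated arrays, Diras2, Mrgprf and Fbxo32 fell in wild type (4.8% of all genes), and Diras2 and Fbxo32 fell and Nt5e rose in knockout cells (6.45% lower and 7.48% higher).

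The genotypes' responses to TPA were not called different for any of the 7 genes by limma: 0 were called at 1 h, at 3 h and between 1 h and 3 h, against 0.0275%, 0.358% and 0.183% of all genes. At an unadjusted p below 0.05 the counts were 3 (Nt5e, Diras2 and Fbxo32) at 1 h, 3 (Diras2, Mrgprf and Fbxo32) at 3 h and 1 (Mrgprf) between 1 h and 3 h, against 5.87%, 10% and 6.51% of all genes. At 1 h the further probes had the opposite sign for 2 of the 3, at 0.20 against −0.39 for Nt5e and −0.34 against 0.39 for Diras2. The differences of responses at 1 h and at 3 h use the untreated arrays that chose the genes, which pushes them opposite to the 0 h difference. Nothing is read from their counts about the 7 genes.

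For the genotype difference, probes agreed in sign and less in size. The 6 genes other than Mrgprf, which had a single probe, had 8 further probes. All 8 gave the sign of the main probe at 1 h and 3 h. They did so at 0 h as well, but the genes were chosen on that difference, so nothing is read from it. The same share over other genes is not given here. At 1 h 5 of the 8 were called and at 3 h 3, against 1.29% and 3.11% of all 20239 kept probes. Groups did not overlap for 6 of the 8 at 1 h and 7 at 3 h, as for 16.6% and 19.2% of all kept probes. The further probe showed the smaller difference in 6 of 8 cases at 1 h and in 7 of 8 at 3 h. The main probe had been chosen for brightness.

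The second Aqp1 probe, ILMN_2980661, gave −1.18 at 1 h and −0.95 at 3 h (limma adjusted p = 3.7e-06 and 2.72e-05). The third, ILMN_2980663, gave −0.41 and −0.49 and was not called (adjusted p = 0.294 and 0.128). It was detected on 15 of 18 arrays. The further Nt5e probe, detected on 13 arrays, gave −0.38 at 1 h (limma adjusted p = 0.338) and −0.61 at 3 h (adjusted p = 0.0406), and showed no rise from 1 h to 3 h in knockout cells (−0.22, adjusted p = 0.501).

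The further Smoc1 probe, detected on 9 of 18 arrays, was close to background and gave −0.09 and −0.11 (limma adjusted p = 0.857 and 0.776). It was detected on 0, 1 and 1 of the 3 knockout arrays at 0 h, 1 h and 3 h. It thus passed the filter only through wild type, where it was brighter, which limits what its sign can show. For Diras2 the further probe gave −1.04 at 1 h (adjusted p = 0.000318) and −0.41 at 3 h (adjusted p = 0.143), where the main probe gave −0.61 and −0.62. It fell with 3 h of TPA by 0.84 in wild type and 0.55 in knockout (limma adjusted p = 0.000338 and 0.0122), with the fall from 1 h to 3 h called in wild type and not in knockout. The further Parm1 probe gave 0.82 and 0.35 (limma adjusted p = 0.00335 and 0.225).

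The 2 further Fbxo32 probes were detected on all 18 arrays. ILMN_2715893 gave 0.64 and 0.33 (limma adjusted p = 0.0161 and 0.236) and ILMN_2752994 gave 0.66 and 0.68 (adjusted p = 0.00151 and 0.000612), so the value at 3 h was below that at 1 h on 2 of the 3 probes. Both fell with 3 h of TPA in both genotypes. The falls were 0.46 in wild type and 0.90 in knockout on ILMN_2715893 (limma adjusted p = 0.0273 and 4.59e-05), and 1.16 and 1.30 on ILMN_2752994 (adjusted p = 6.44e-08 and 7.87e-09).

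**Figure D4:**
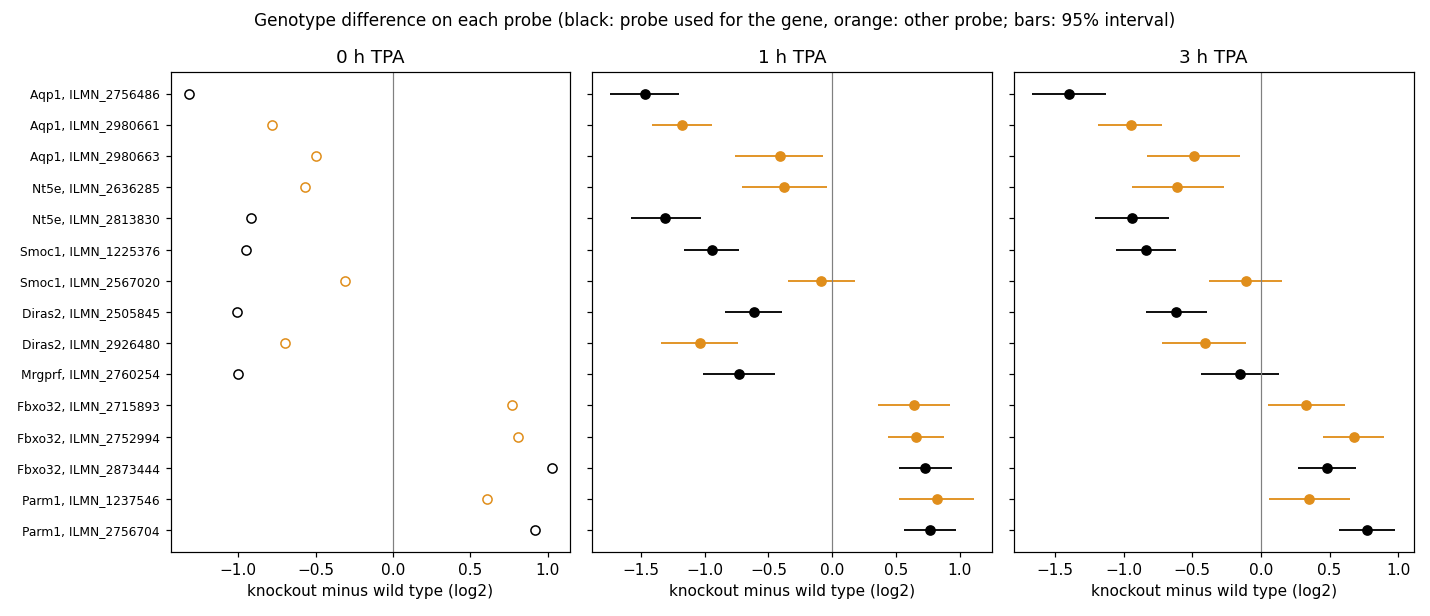
Difference between knockout and wild type (log2, horizontal axes) on each of the 15 probes at 0 h, 1 h and 3 h, with the probe used for each gene in black and others in orange; bars are 95% intervals, and open points at 0 h have none. Every probe lies on the side of its gene's main probe, with the further Smoc1 probe nearest to 0 at 1 h and 3 h.

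The genes whose signal over the 18 arrays was most like each of the 7 are given as a description, since all arrays share the same 6 groups. The second value for each pair is r once group means were removed. Aqp1 and Smoc1 were each other's nearest gene (Pearson r = 0.97, then 0.39), and Itm2a followed for Aqp1 (0.94, then 0.30) and Nt5e for Smoc1 (0.90, then −0.08). Nt5e was nearest to H2ac12 (0.91, then 0.36) and Moxd1 (0.91, then −0.02). Diras2 ran with Celf2 (0.95, then 0.39) and Tnfrsf11b (0.94, then 0.09), and Mrgprf with Diras2 (0.89, then 0.12) and Ccn5 (0.89, then 0.11). Fbxo32 was nearest to Nnmt (0.98, then 0.60) and Cemip (0.95, then −0.09), and Parm1 to Ivl (0.97, then 0.49) and Lce1f (0.95, then 0.10). Among the 7 themselves Parm1 ran opposite to Smoc1 (−0.94, then −0.37), Nt5e (−0.93, then −0.12) and Aqp1 (−0.90, then 0.11). For Fbxo32 and Mrgprf r was −0.04, then −0.09, though both fell with TPA in both genotypes. The genes were chosen for genotype differences on these arrays, so the first values follow in part from that choice. With group means removed, the pairs of the 7 lay between −0.48 and 0.56.

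Transcripts used as readouts of ERK output were also compared between the genotypes. Of 17 tested, 1 was higher (Dusp4, by 0.70, limma adjusted p = 0.00236) and 1 lower (Dusp5 itself) at 1 h, where 2.2% of all genes were called. At 3 h 5 were higher and 2 lower, where 4.97% of all genes were called. Egr1 was higher by 1.28 (limma adjusted p = 6.83e-08), Dusp4 by 0.74 and Spred2 by 0.57, and Dusp5 itself, 1 of the 2 lower, was down by 0.65. The median of the 17 was 0.13 at 1 h and 0.01 at 3 h. In both genotypes 7 of the 17 rose and 0 fell at 1 h of TPA, against 1.88% of all genes called higher in wild type and 2.56% in knockout. At 3 h 10 rose in each, and 2 fell in wild type and 1 in knockout, against 7.81% and 8.25% of all genes called higher.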

How the data were processed

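The deposited non-normalized table gave, per the file headers, a bead-summary intensity for each probe and array, and the authors deposited a detection p-value beside each intensity. The series matrix held log2 values that the authors normalized before they deposited them, by a method not given in the sources used here, and served as an alternative. Their rank correlation with the intensities was 1. No column was left unmapped (0).

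With neqc (limma 3.58.1, R 4.3.3), normexp correction used the detection p-values, and quantile normalization and a log2 transform followed an added offset of 16. The offset and the correction set how large a difference in dim probes appears. Probes with detection p under 0.05 on 3 or more of the 18 arrays were retained, 20239 of 45281. Symbols came from the platform annotation, in which 34885 probes carried 1 symbol, 18 several and 10378 none. For 10902 genes the brightest retained probe stood for the gene.

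A model with 6 group means was fitted by limma over all 18 arrays (12 residual degrees of freedom), and p-values were adjusted by Benjamini-Hochberg over all genes in each of 12 comparisons, or over all kept probes for probe agreement. Errors are standard errors, and the number of arrays limits their precision. The fit was tested on simulated data. The genes and the lists were chosen with earlier results of these data known. Named besides them were Dusp5, up to 4 called genes of a list by size at 1 h or 3 h, and the 2 genes most correlated with each, and members of lists named without a call were chosen after their values were seen. Alternatives were 10 other settings and each array left out in turn.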

Additional observations from a re-analysis of the deposited data

How the results depend on the processing

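No called value of the 7 genes changed sign under any of the 10 other settings or without any 1 array. Uncalled values did: 59 alternative values, of 25 comparisons that were at most 0.32 in size, had the other sign, 13 of them with scaling to all probes and 32 with an array left out, and 0 of the 59 were called. Of 2352 comparisons of a value with its alternative 2286 stayed on their side of the threshold or within the replicate spread, 12 lost a call, 27 gained one and 27 differences at 0 h moved in size. At 1 h all 7 and at 3 h 6 of the 7 genes were called without any 1 array. Without background correction differences shrank and kept their sign, at 1 h to −0.90 for Aqp1, −0.70 for Nt5e, −0.21 for Diras2 and −0.23 for Mrgprf; the cause was not tested.

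The counts of all tested genes moved more. At 0 h the count was 202, and 385 without background correction, 381 in the series matrix values, 1548 with scaling to the median of all probes, 530 with scaling to the tested genes, 346 with a variance trend and 129 with only the arrays compared. Scaling to all probes turned 240 into 889 (1 h) and 542 into 179 (3 h) between the genotypes, 369 into 1381 and 1744 into 4821 for TPA at 1 h and 3 h in wild type, 590 into 1384 at 1 h in knockout, and 1115 into 653 and 1519 into 964 from 1 h to 3 h. It moved the median of all genes by −0.318 to 0.211, and cut the share of called genes that were higher from 52% to 2% at 0 h and from 49.6% to 2.36% at 1 h. Scaling to the tested genes gave 642 and 2971 for TPA in wild type, and shares of 74.5% and 65.7%. With only the arrays compared the genotype counts were 90 and 281. Differences of responses gave 5, 5, 1 and 1 against 3 (1 h), 59, 59, 25 and 24 against 39 (3 h), and 12 and 11 against 20 (1 h to 3 h). Fewer arrays enter when only those compared are used; the other causes were not tested.

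Among the 7 genes, calls for TPA at 1 h in wild type were 0, and 3 with scaling to all probes or 1 with the mean of probes; at 3 h 3 became 6 with scaling to all probes (Aqp1, Smoc1 and Parm1 added); and the difference of 3 h responses had 1 in 4 settings. The further probes called at 1 h were 5, and 3 with scaling to all probes. Leaving out each array gave 76 to 308 genes at 0 h, 123 to 265 at 1 h, 348 to 555 at 3 h, 267 to 401 and 1227 to 1860 for TPA in wild type, 414 to 611 and 1558 to 2053 in knockout, 790 to 1165 and 1203 to 1541 from 1 h to 3 h, and 3 to 4, 19 to 43 and 9 to 21 for the differences. For the 7 genes it gave 0 to 1 and 3 for TPA in wild type, 1 and 2 to 4 in knockout, 2 to 3 and 2 to 4 from 1 h to 3 h, and 0, 0 to 1 and 0 for the differences. Of the further probes 4 to 5 and 2 to 3 were called.

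With the replicate number as a block 7 and 6 of the 7 genes were called at 1 h and 3 h, and over all tested genes 278 and 599. It changed no call of the 7 genes. Deviations of same-numbered arrays of different groups correlated with a median r of 0.045 over 45 pairs, 10 of them over 0.1, and those of different-numbered arrays with −0.028 over 90 pairs, 7 over 0.1. For 15 of 18 arrays the mean correlation was highest with their own number, a hint from the data and not from the design. Not every pair passed 0.1 and the labels do not say what a number marks, so the numbers were not taken as pairs. Dim probes limit what can be seen: Diras2 at 3 h in knockout cells was below detection.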
